A study of Mus musculus with 2 samples.

Results

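Serpinb9 and its paralogs belong to the clade B serpins, the intracellular branch of the serine protease inhibitors. The genes described here were Serpinb9, Serpinb9b, Serpinb9c, Serpinb9d, Serpinb9e, Serpinb9f, Serpinb9g, Serpinb6a, Serpinb6b and Serpinb1a, which are 10 of the 31709 genes on the array and were read by 12 probes. They were selected on their measured signals in the same pair of arrays, so their differences are given as a description with no test. The parental Ba/F3 cells, a line of mouse pro-B cells whose growth depends on interleukin-3, were the control. The other cells were BaF/3 (#BEB1), a variant isolated as a single clone after parental cells had received a retroviral cDNA library of the rat oligodendrocyte precursor line CG4 and had been sorted repeatedly for binding of an Ecrg4–Fc fusion protein. Both were kept in medium with foetal calf serum and recombinant mouse interleukin-3. Cyanine 3-labelled cRNA of each was hybridised to 1 Agilent whole mouse genome array. The 2 arrays shared a slide, no difference has a replicate check, and the number of arrays limits the precision.

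Serpins trap a protease by offering it a reactive loop that is cleaved and locks the enzyme in a complex. Serpinb9 inhibits granzyme B, the death-inducing protease of cytotoxic lymphocyte granules, and Serpinb1a and Serpinb6a inhibit granule proteases of myeloid cells such as cathepsin G. In the mouse the family has expanded by gene duplication into a cluster on chromosome 13, and the targets of most of the additional Serpinb9 and Serpinb6 copies are less well defined.

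The deposits gave opposite directions between the cell lines. The scanner output deposited for the parental cells matched the authors' table column of BaF/3 (#BEB1), with a Pearson correlation of 0.999996 over 39429 probes, and the scanner output deposited for BaF/3 (#BEB1) matched the table column of the parental cells (0.999998). The same correlation within each named cell line was 0.982. Array A is therefore the array deposited as parental scanner output and tabulated as BaF/3 (#BEB1), and array B is the opposite. A positive difference means a higher signal on array A, which is BaF/3 (#BEB1) by the authors' table and the parental cells by the scanner output. Olr1, which encodes LOX-1, the receptor that the study cloned through a cDNA library of BaF/3 (#BEB1), bears on this choice. Its difference was 5.01 on the log2 scale, higher on array A, the side that the authors' table gives to BaF/3 (#BEB1). The paper reports from its microarray that mRNA of this receptor was much higher in the variant clone than in the parental cells. That is the direction of the authors' table and the opposite of that of the scanner output. The statement may rest on the same table, so it is not an independent check. The arrays were not assigned to a cell line from the Olr1 signal or that statement, and directions are given between the arrays throughout.

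Serpinb9e, Serpinb9f and Serpinb9g were far brighter on array A, and Serpinb9c followed them. Serpinb6b differed in the same direction by 2.40-fold. Serpinb9, after which the paralogs are named, was dim on both arrays and its difference was within its measurement error. Serpinb6a and Serpinb1a were bright on both arrays and lay less than 2-fold apart, in opposite directions. The upstream windows of Serpinb9e, Serpinb9f and Serpinb9g shared 89.1% to 93.4% of aligned columns with each other, with unpaired ends counted as differences. Serpinb9d, whose window shared 83.2% to 89.8% with theirs, was not well above background on either array. Whether upstream sequence has a part in these differences was not tested. The upstream windows of these 4 genes are shown for comparison. Each is the RefSeq window of GRCm38.p6 from 250 bases before to 50 bases after the annotated start, in the direction of transcription. Serpinb9e is the reference, in lower case throughout, and capitals in the others mark bases that differ from the aligned Serpinb9e base or have no partner in it.
Serpinb9e, chr13:33249358-33249657, plus strand: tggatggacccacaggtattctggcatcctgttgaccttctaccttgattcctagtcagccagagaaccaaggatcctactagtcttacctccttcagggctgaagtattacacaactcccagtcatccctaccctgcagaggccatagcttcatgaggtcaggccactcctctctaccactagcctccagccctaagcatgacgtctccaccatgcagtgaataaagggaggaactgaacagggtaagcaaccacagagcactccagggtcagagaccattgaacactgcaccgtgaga
Serpinb9f, chr13:33323827-33324126, plus strand: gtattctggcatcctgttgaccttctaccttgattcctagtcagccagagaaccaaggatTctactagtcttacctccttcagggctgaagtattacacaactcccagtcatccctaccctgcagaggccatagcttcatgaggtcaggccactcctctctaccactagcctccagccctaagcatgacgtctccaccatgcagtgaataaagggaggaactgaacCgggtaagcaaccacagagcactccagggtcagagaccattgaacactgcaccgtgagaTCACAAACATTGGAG
Serpinb9g, chr13:33484540-33484839, plus strand: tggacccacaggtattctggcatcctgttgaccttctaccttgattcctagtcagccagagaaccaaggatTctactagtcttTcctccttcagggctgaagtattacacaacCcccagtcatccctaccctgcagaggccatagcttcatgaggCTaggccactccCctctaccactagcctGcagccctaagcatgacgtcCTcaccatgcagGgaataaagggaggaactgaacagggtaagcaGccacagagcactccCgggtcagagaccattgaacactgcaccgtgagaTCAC
Serpinb9d, chr13:33192705-33193004, plus strand: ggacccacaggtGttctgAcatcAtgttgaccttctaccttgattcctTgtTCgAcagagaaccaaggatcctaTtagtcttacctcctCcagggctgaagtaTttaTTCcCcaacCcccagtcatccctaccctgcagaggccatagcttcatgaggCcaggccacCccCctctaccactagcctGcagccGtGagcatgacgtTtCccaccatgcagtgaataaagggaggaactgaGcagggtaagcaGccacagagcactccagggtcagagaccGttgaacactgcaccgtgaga

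Serpinb9e, Serpinb9f and Serpinb9g differed from each other at few positions. Identity over the aligned columns, with unpaired ends counted as differences, was 93.4% between Serpinb9e and Serpinb9g, 89.8% between Serpinb9e and Serpinb9f and 89.1% between Serpinb9f and Serpinb9g. This order reflects the offset of the windows as well as substitutions. Serpinb9e had 283 identical bases over 315 columns with Serpinb9f, and 284 over 304 with Serpinb9g. Most of the 17 capitals of Serpinb9f lie in its unpaired end, whereas most of the 16 of Serpinb9g lie in paired sequence. Serpinb9d shared 89.8% with Serpinb9e, 89.5% with Serpinb9g and 83.2% with Serpinb9f. The last pair, with 262 identical bases over 315 columns, has the longer unpaired ends, so its lower value does not measure divergence of the paired sequence. The run of capitals at the end of the Serpinb9f window reflects an annotated start that lies further downstream in the shared sequence. RefSeq windows were found for 9 of the 10 genes, 11 in all since Serpinb9c and Serpinb6a have 2 starts each, and Serpinb1a had no entry.

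Outside this quartet the windows were much less alike. The start of Serpinb9c that was more similar to them shared 62.3% to 65.1% of columns with the 4 genes. Serpinb9 and Serpinb9b shared 59.6% with each other. The other 44 pairs of windows had between 44.1% and 54.5% identity, with a median of 48.9%. Serpinb9 shared 47.0% to 48.9% with the quartet, within the range of those other pairs.

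**Figure D1:**
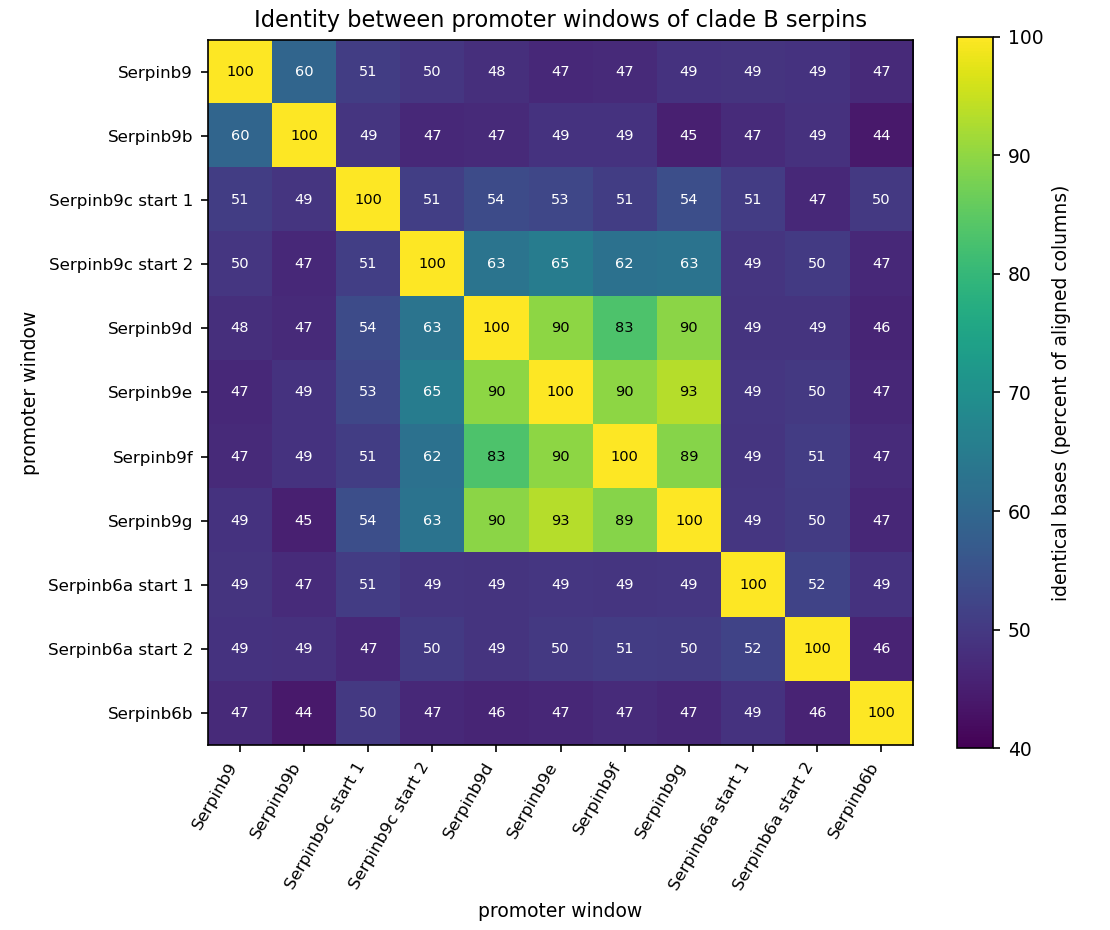
Identity between the RefSeq promoter windows of the clade B serpins described here, as a percentage of aligned columns including unpaired ends; rows and columns are windows and the colour scale runs from 40 to 100. Serpinb9d, Serpinb9e, Serpinb9f and Serpinb9g form a block between 83.2% and 93.4%, while Serpinb9 and Serpinb9b stand apart from it at 59.6% with each other.

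Short motifs were searched on both strands of the 11 windows. None of these windows held TATAAA (the TATA box core, in 13.6% of all 32851 windows), TGANTCA (the AP-1 site, 7.81%), TGACGTCA (the cyclic AMP response element, 1.79%), GCGNGGGCG (the Egr site, 5.55%), GAGGAAGT (a PU.1 site, 3.20%) or the NF-κB consensus (8.46%). The GAS motif TTCNNNGAA, bound by STAT factors, was present in 8.30% of all windows. It occurred in 1 of the 2 Serpinb9c windows, at −188 from the start, and in 1 of the 2 Serpinb6a windows, at −77 and again at 21, counted in bases from the start. CCAAT, in 37.4% of all windows, occurred in the other Serpinb6a window and, on the minus strand at 44, in that of Serpinb9f. The quartet thus held none of these letters apart from that CCAAT match. It lies in the unpaired end of the Serpinb9f window, beyond the sequence searched for Serpinb9d, Serpinb9e and Serpinb9g.

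Probe sharing was examined before the levels, because 60-base probes of close paralogs can bind the same transcript. Among 292 pairs of clade B probes for different genes, 2 pairs shared at least 45 aligned bases. The Serpinb9f and Serpinb9g probes were identical at 52 of 59 aligned bases, and the Serpinb6a probe and a Serpinb6c probe at 55 of 59. A stretch of 30 bases of each is shown, in the probe's own orientation, with capitals at the bases that differ within the pair.
Serpinb9f: ttctatctgttttcaatatAtTtaCAtAtc
Serpinb9g: ttctatctgttttcaatatGtAtaAGtGtc
Serpinb6a: ATtatgaaataaagggcttTatggcacccc
Serpinb6c: GCtatgaaataaagggcttAatggcacccc

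The Serpinb9f and Serpinb9g probes lie at chr13:33427039-33427098 and chr13:33587669-33587728 of mm9, the build in the scanner output, both on the plus strand. Those of Serpinb6a and Serpinb6c lie at chr13:34009796-34009855 and chr13:33971686-33971745, both on the minus strand. Another Serpinb6c probe shared 39 of 42 aligned bases with that of Serpinb6a, and the Serpinb6e probe shared 43 of 55 with it. The array design also listed the Serpinb9f probe for a Serpinb9e transcript, NM_011456, and gave the model transcript XM_619089 to the Serpinb9e and the Serpinb9f probe alike. A search of all 39429 probes for runs of at least 20 bases in common with these probes found only those of Serpinb9f with Serpinb9g and of Serpinb6a with Serpinb6c. The signals of Serpinb9e, Serpinb9f and Serpinb9g can therefore not be taken as independent of one another, and matches to transcripts were not analysed here. Whether the probes lie in coding sequence or in an untranslated region was not looked up, since no annotation of this build was used.

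Serpinb9f was read by probe A_55_P1971425, designed for NM_183197. Its signal was 1932 ± 193 on array A against 43.3 ± 8.10 on array B, where the error is that of Feature Extraction's error model for a single spot. After scaling each array to its 75th percentile, the difference was 5.0 on the log2 scale (SE 0.31, 95% range 4.40 to 5.60), or 32-fold. Its difference towards array A ranked 2 among the 14815 genes that were well above background on both arrays. On array B the 153 negative control spots had a median signal of 5.51 and a 95th percentile of 7.13, and 1 of them, at 53.8, was brighter than the Serpinb9f spot.

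Serpinb9e had a difference of like size at probe A_55_P1971430, at chr13:33352399-33352458 on the plus strand. Its signal was 1430.3 ± 143 on array A against 39.0 ± 6.94 on array B. The difference was 4.72 (SE 0.29, 95% range 4.14 to 5.29), or 26.3-fold, and ranked 5. Its range overlapped that of Serpinb9f. The other Serpinb9e probe, A_51_P459128 at chr13:33351856-33351915, was not well above background on either array, with signals of 25.6 ± 6.85 and 5.11 ± 5.09. The probes for NM_011456 thus disagreed in level on array A, and the brighter of them was the one whose design also listed the model transcript.

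Serpinb9g, read by A_55_P1971419 for NM_011455, had a signal of 924 ± 92.6 on array A against 25.7 ± 6.19 on array B, where it was not well above background. Its difference is given as a bound of 4.69 on the log2 scale, or 25.8-fold, taken against its own dim signal. That bound equals the difference between the scaled signals, with a 95% range of 3.95 to 5.43 from spot error. The true difference may thus be smaller than 25.8-fold. Serpinb9g was 1 of 785 genes that were well above background on array A alone.

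Serpinb9c lay on the opposite strand from these genes, at chr13:33241202-33241261 on the minus strand for probe A_55_P1971439. Its signal was 522 ± 52.7 on array A against 38.8 ± 6.96 on array B, a difference of 3.27 (SE 0.30, 95% range 2.69 to 3.85), or 9.65-fold, at rank 24. The difference of Serpinb9c was the smallest of these 4. Its other probe, A_51_P483499 at chr13:33246272-33246331, gave 7.41 and 7.01 and was not well above background on either array, although the design listed the same pair of Serpinb9c transcripts, NM_001164524 and NM_011453, for both probes. The Serpinb9c value thus came from 1 of its 2 probes.

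**Figure D2:**
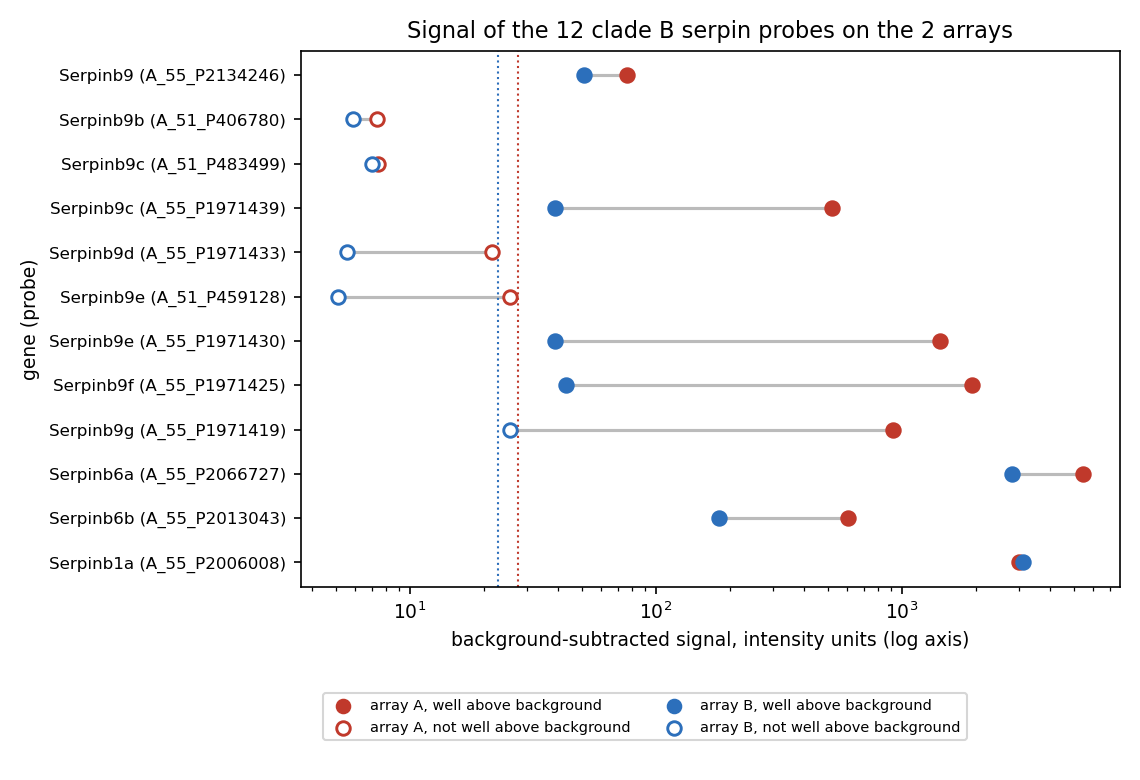
Background-subtracted signal of each of the 12 probes on array A (red) and array B (blue), in intensity units on a log axis; filled points were well above background, open points were not, and dotted lines mark the lowest signal well above background on each array (27.6 for array A, 22.9 for array B). Serpinb9c, Serpinb9e, Serpinb9f and Serpinb9g run from about the dotted lines on array B to between 522 and 1932 on array A.

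Serpinb9, the granzyme B inhibitor itself, was read by A_55_P2134246 at chr13:33109767-33109824 on the plus strand. Its signal was 76.2 ± 10.9 on array A against 51.1 ± 8.07 on array B. The difference was 0.10 (SE 0.31, 95% range −0.51 to 0.70), and the range included 0. Its range did not overlap that of any of the 3 measured paralogs Serpinb9c, Serpinb9e and Serpinb9f, which is a description of spot error and not a test.

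Serpinb9b and Serpinb9d did not reach well above background on either array. The Serpinb9b probe, at chr13:33132294-33132353, had signals of 7.36 on array A against 5.87 on array B, and 55 and 51 of the 153 negative control spots were at least as bright. The Serpinb9d probe, at chr13:33295749-33295808, had a signal of 21.7 ± 7.12 on array A against 5.55 ± 5.53 on array B. On array A, 3 negative control spots were at least as bright as Serpinb9d, against 75 on array B. With a looser filter Serpinb9d was measured on array A alone, with a bound of 1.49 towards array A, so its place among the unmeasured genes rests on the filter.

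Serpinb6b, at chr13:33070776-33070835 on the plus strand, had a signal of 601 ± 60.7 on array A against 179.8 ± 19.1 on array B. The difference was 1.26 (SE 0.21, 95% range 0.85 to 1.68), or 2.40-fold, at rank 285. With normexp background correction it was 0.91 and no longer reached 2-fold. Serpinb6a had a signal of 5421 ± 542 on array A against 2802 ± 280.2 on array B, a difference of 0.47 (SE 0.20, 95% range 0.07 to 0.87). Its probe is the one that is near-identical to a Serpinb6c probe, and the part of Serpinb6c transcript in its signal was not tested. The Serpinb6c probes themselves differed by 0.51 and 0.56.

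Serpinb1a, which inhibits neutrophil elastase and related proteases, was read at chr13:32934693-32934752 on the minus strand. Its signal was 2989 ± 299 on array A against 3101 ± 310.2 on array B. The difference was −0.53 (SE 0.20, 95% range −0.93 to −0.13), which made Serpinb1a the only 1 of the 7 genes measured on both arrays with a lower scaled signal on array A, except that Serpinb9 also fell below 0, at −0.16, with normexp background correction.

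All 12 probes were printed as 1 spot each, so the spread between spots could be seen only at other probes. Among probes with 10 spots on array B, those with signals between 20 and 80 had a median SD of 0.22 on the log2 scale (16 probes), and the SD for array A was 0.56 (24 probes). Between 500 and 8000 the median SD was 0.05 on each array, over 124 and 133 probes. The dim signals on array B are thus the less precise side of the differences of Serpinb9c, Serpinb9e and Serpinb9f.

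Of the 10 genes, 7 were measured on both arrays, 1 on array A alone and 2 on neither. Among the 7, 4 were past 2-fold towards array A and 0 towards array B. Over all genes measured on both arrays, 3.85% were past 2-fold towards array A and 7.3% towards array B. Of the genes measured on array A alone, 36.7% had a bound past 2-fold, as had Serpinb9g. Nothing is read from the count of the 10 genes, since they were selected on these values. The median difference was 1.26 over the 7 genes and −0.02 over all 14815. In such bulk RNA, a smaller share of cells with a transcript and less transcript in each cell cannot be told apart.

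**Figure D3:**
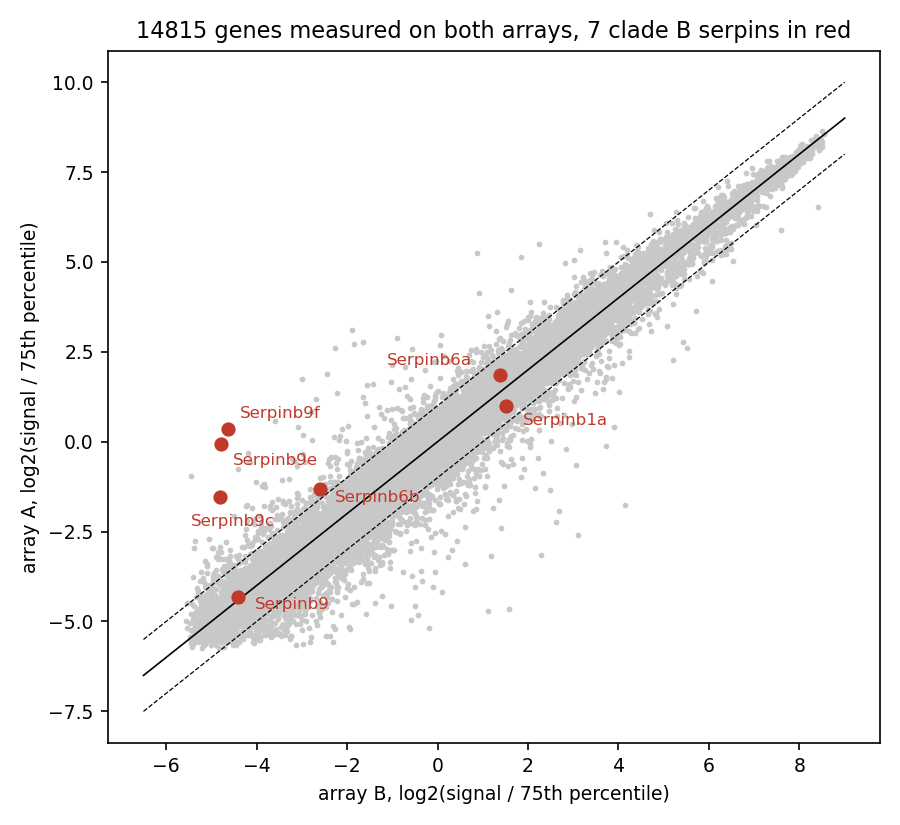
Scaled signal of the 14815 genes measured on both arrays, as log2 of the signal over the 75th percentile, with array B on the horizontal and array A on the vertical axis; the diagonal is equality, with a broken line 2-fold to each side, and the 7 measured clade B serpins are in red. Serpinb9e and Serpinb9f lie among the points farthest above the lines, with differences of 4.72 and 5.0, whereas Serpinb9, Serpinb6a and Serpinb1a lie between them.

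The authors' table held the same pattern, with the labels of the cell lines the other way round. Its log2 value for Serpinb9f was −4.49 in the parental column and 0.53 in the BaF/3 (#BEB1) column, a difference of 5.02. For Serpinb9e the values were −4.64 and 0.10, for Serpinb9c −4.65 and −1.36 and for Serpinb9g −5.25 and −0.53. By the table these differences are thus higher in BaF/3 (#BEB1), the side on which Olr1 was brighter too, and by the scanner output they are higher in the parental cells.

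Along chromosome 13 the probes of the 10 genes spanned 1075 kb. Serpinb1a lay 175 kb and Serpinb6b 39.0 kb before the Serpinb9 probe, and Serpinb9c 131 kb, Serpinb9e 243 kb, Serpinb9f 317 kb, Serpinb9g 478 kb and Serpinb6a 900.0 kb after it. The 4 genes with the largest differences were thus consecutive among the probes well above background. An unnamed transcript between Serpinb9 and Serpinb9c differed by 0.09. Within 1 Mb of a probe of the 10 genes there were 32 other genes, of which 14 were measured on both arrays. Their differences had a median of 0.18 and ran from −0.63 to 1.03. The highest was that of Psmg4, a proteasome assembly chaperone, with signals of 9435 and 3325. It was 0.94 when arrays were scaled to the probes well above background on both and 0.96 with quantile scaling, below 2-fold. No other neighbour reached 2-fold, and the predicted gene Gm6093, just beyond Serpinb9g, differed by 0.66.

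**Figure D4:**
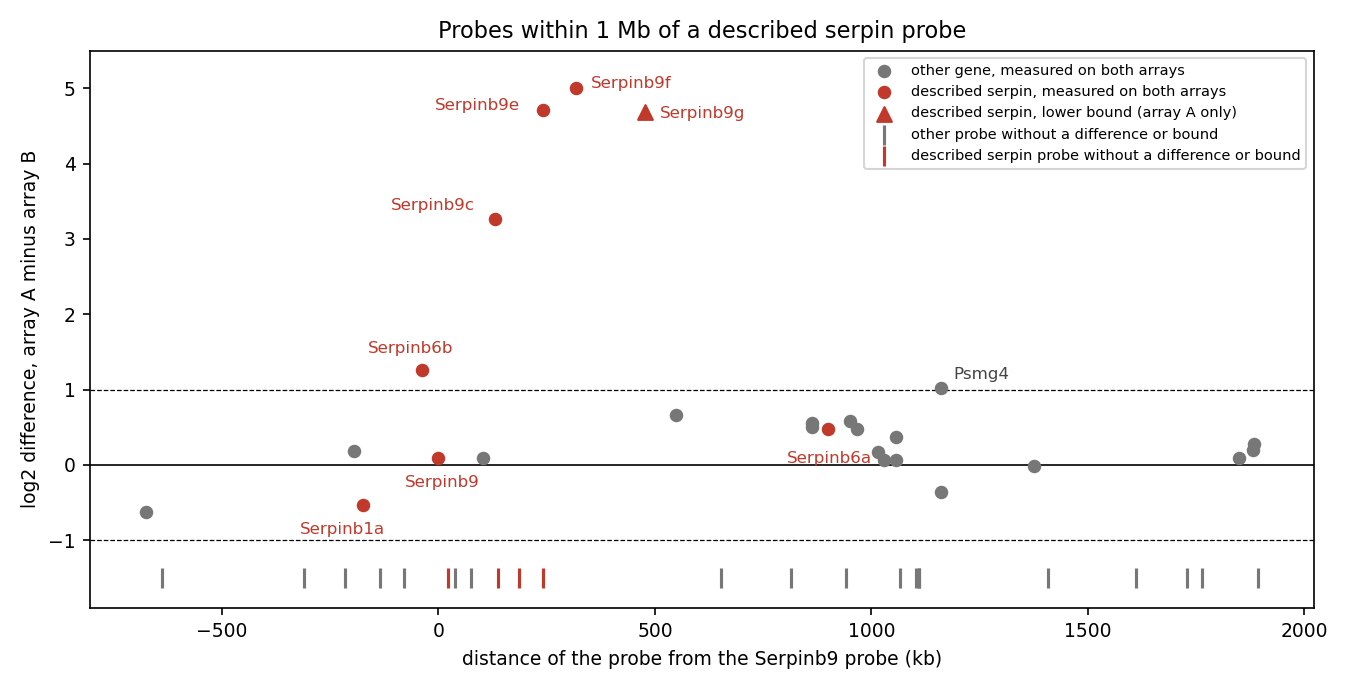
Difference between the arrays on the log2 scale (array A minus array B) for probes within 1 Mb of a probe of the 10 genes. The horizontal axis is the distance from the Serpinb9 probe in kb. Red marks the clade B serpins described here and grey other genes. The triangle is the bound of Serpinb9g, taken against its own dim signal. Ticks at the bottom are probes without a difference or bound. Serpinb9c, Serpinb9e, Serpinb9f and Serpinb9g stand between 131 and 478 kb at 3.27 or more, while the other genes lie between −0.63 and 1.03.

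Few other clade B serpins were measured, and 0 of them reached 2-fold. Of 18 such genes listed, 17 had a probe and 2 were measured on both arrays. Serpinb6c differed by 0.53, and Serpinb8, an inhibitor of furin, had signals of 11104 and 7428 and a difference of 0.10. The other 15 were well above background on neither array, among them Serpinb1b, Serpinb1c, Serpinb6d and Serpinb6e of the same cluster. Serpinb9h had no probe. Signals well above background on at least 1 array thus came from 10 genes of the clade, 8 of them among the 10 described here. Of all 31709 genes, 14815 were well above background on both arrays, 785 on array A alone and 905 on array B alone. Nothing is read from the 8, since the genes described were selected on their signals.

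Among 31 serpins of other clades, 8 were measured on both arrays, with a median difference of 0.39. Past 2-fold there were 3 towards array A and 2 towards array B, the latter being 1 with median scaling, quantile scaling or normexp. Serpina3g, among the 3 at 1.05, was 0.97 with quantile scaling. It was also 0.97 with scaling to probes well above background on both arrays. Serpinc1, which encodes antithrombin, was higher on array A by 2.62, and Serpina3f, a member of another mouse serpin expansion, by 1.98. Serpinf1, which encodes pigment epithelium-derived factor, differed by −1.48. Serpine2, an inhibitor of thrombin, was well above background on array B alone, with a bound of 2.20-fold towards it. The Serpine2 bound fell below 2-fold with median scaling, quantile scaling or normexp. Serpins of other clades measured on both arrays thus differed in both directions, and by less than Serpinb9e and Serpinb9f.

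Several granule proteases, the class of enzyme that such serpins inhibit, were brighter on array B. Of 21 granule serine proteases, 8 were measured on both arrays, with a median of −1.70, which was −0.30 over 11 genes when dimmer probes were admitted and −0.25 over all 21 with no filter. Past 2-fold there were 5 towards array B and 0 towards array A. Gzmb, which encodes granzyme B, the target of Serpinb9, had signals of 320.0 on array A against 6649 on array B, a difference of −4.86 or 29.0-fold. Prtn3, which encodes proteinase 3, had signals of 54.8 and 363 and differed by −3.20. Cma1, a mast cell chymase, differed by −2.95, Ctsg, which encodes cathepsin G, by −1.81 and Prss57, another neutrophil granule protease, by −1.60. Elane, which encodes neutrophil elastase, differed by 0.10, so not every measured protease differed. With 2 arrays each serpin and protease gives 1 difference, and no relation between them could be tested.

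Other genes of the granules and of the death pathway they trigger mostly lay within 2-fold. All 9 that were listed were measured on both arrays, and their median was −0.07, or 0.22 with scaling to the median of each array. Prf1, which encodes the pore-forming perforin, differed by 0.48, Srgn, the granule proteoglycan serglycin, by 0.47, and Bid, a substrate of granzyme B, by −0.79. Ctsc, which encodes cathepsin C, the activator of granule proteases, differed by 0.85. Casp1, which encodes the inflammatory caspase 1, was the only gene of them past 2-fold towards array A, at 1.09, and 0 were so towards array B. With scaling to the median 2 genes were, as Ctsc then reached 1.14.

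The genes with a symbol whose difference was nearest to that of Serpinb9f were Olr1 at 5.01, Bcl2a1c at 4.86 and Egr2 at 4.74. Olr1 encodes the scavenger receptor LOX-1, Bcl2a1c belongs to a family of anti-apoptotic genes and Egr2 encodes a zinc-finger transcription factor. Likeness was the gap between differences over the single pair of arrays, and it says nothing of shared control.

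Markers of other cell types also differed, most of those past 2-fold towards array B, opposite to the serpins. Of 12 B-lineage markers, 11 had a probe and 2 were measured, Cd79b at −2.30 and Vpreb1 at −1.39, while 9 were well above background on neither array, Pax5 and Ebf1 among them, so these defining markers of the labelled pro-B identity were not seen above background. Of 5 genes of interleukin-3-dependent growth, 4 were measured, in both directions. The receptor subunits Csf2rb and Csf2rb2 differed by −1.86 and −1.60, whereas the receptor subunit Il3ra differed by 0.40 and Ptprc by 0.75. All 3 measured neutrophil markers of 5 and both measured mast cell markers of 5 were past 2-fold towards array B, among them S100a9 at −5.90 and Cpa3 at −5.44, and S100a8 and Fcer1a, measured on array B alone, were higher there by at least 180.0-fold and 45.7-fold. Of 5 macrophage markers 3 were measured, in both directions, with Fcgr1 at 2.23, Adgre1 at 0.90 and Csf1r at −0.46. T and NK cell markers had 2 of 6 measured, with Cd3d at 1.27 and Cd3e at 0.22. Cd3g was well above background on array B alone, with a bound of −0.56. The part of these markers in the differences of the clade B serpins and of the granule proteases was not tested.

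**Figure D5:**
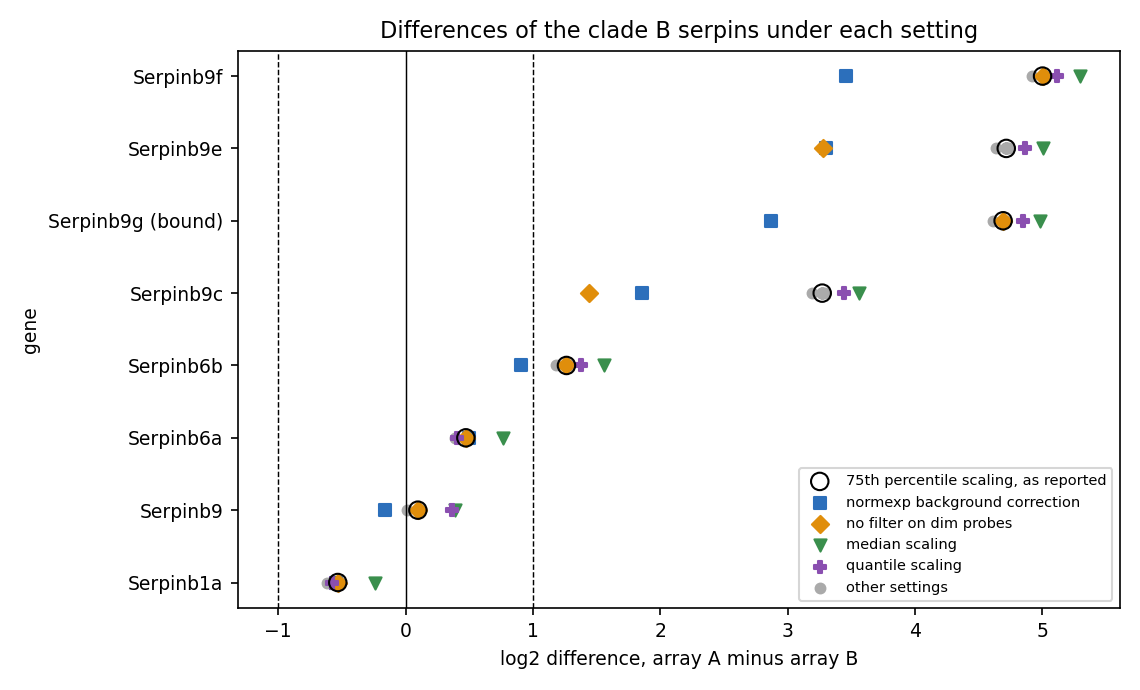
Difference of each measured clade B serpin (array A minus array B, log2 scale) under the reported setting and the alternatives that apply to it. For Serpinb9g the bound is shown. Open circles are the values reported here, coloured marks the settings named in the key, grey points the others, and dashed lines 2-fold. The differences of Serpinb9c, Serpinb9e, Serpinb9f and Serpinb9g are above 1 wherever a value could be given, the lowest being 1.44 for Serpinb9c without a filter on dim probes, and Serpinb9 changes sign under normexp at −0.16.

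The sizes of the largest differences changed with the background correction. Normexp background correction subtracts local background, models what remains and adds an offset of 50. It gave 3.46 for Serpinb9f, 3.30 for Serpinb9e and 1.85 for Serpinb9c, and a bound of 2.87 for Serpinb9g. The offset was not tried apart from the rest of the correction. Under the other scalings tried, the difference of Serpinb9f ran from 4.92 to 5.29. All 4 stayed above 2-fold towards array A under each alternative that gave them a value, but several alternatives could not change these values. Leaving out the similar probes of Serpinb9f and Serpinb9g gave these genes no value.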

How the data were processed

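RNA of the parental Ba/F3 cells and of BaF/3 (#BEB1) was measured on 1 single-colour Agilent array each. The deposited intensity of each spot was made by the authors with Agilent Feature Extraction 9.5.1.1, which subtracted background and gave a surrogate value to spots not above it. A table of log2 values was deposited too, made by the authors in GeneSpring GX from intensities raised to at least 1 and scaled to the 75th percentile of the array. The medians of the table's columns were −5.21 (parental) and −5.45 (BaF/3 (#BEB1)), so it is scaled and not centred per gene, but its columns and the scanner output give the arrays to opposite cell lines.

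Control spots were left out, which left 43020 spots of 39429 probes. The same floor (reached by 0 spots), percentile (1506 on array A, 1080.4 on array B) and log2 were applied to the scanner intensity. Probes were named through the RefSeq gene table, by accession for 26055, by symbol for 3195 and by an older symbol for 930, and 9249 kept the file's name. Of all probes, 19480 on array A (49.4%) and 19659 on array B (49.9%) were well above background, and a gene took the mean of those that were so on each array. None of the 12 probes carried an outlier mark (0) and no spot was saturated (0). A gene well above background on 1 array only was given a bound against the higher of its own dim signal and the array's lowest signal well above background. Errors are those of the spots, with ranges at 95%, and cover the measurement of a spot only.

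The genes and lists were chosen with earlier results of these data known. Named were all 10 genes, other clade B serpins well above background, Gzmb and up to 6 other proteases, up to 4 other serpins and up to 4 partners past 2-fold with the largest differences, neighbours past 2-fold, and the 3 genes nearest to the largest difference. Elane, Gm6093, Prf1, Srgn, Bid, Ctsc and the markers given were named after their values were seen. Promoter windows were aligned with Biopython 1.88, and probes were compared without gaps at every offset on both strands. The steps were tested on simulated arrays. Alternatives were the floor (5, or 0.01 after scaling), scaling to the median, to probes bright on each array or by quantiles, normexp with an offset of 50, a looser filter or none, spots with outlier marks left out, the brightest or the median probe of a gene, the authors' table, the similar probes of Serpinb9f and Serpinb9g left out, a 3-fold threshold and bounds counted. Python 3.11.15 with numpy 2.4.6, pandas 2.3.3 and scipy 1.17.1, and R 4.3.3 with limma 3.58.1, were used.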

Additional observations from a re-analysis of the deposited data

How the results depend on the processing

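A single array stood for each cell line, so there was no replicate to leave out, and signal over background limits the dim side of each difference. No paired analysis was possible because each cell line has a single array. Of 102 recomputed differences and bounds of the clade B serpins, 96 stayed within their error and 6 moved by more, and 0 of those past 2-fold reversed. Many of the 96 could not move, so their number is no measure of robustness. No spot reached the floor, no outlier mark fell on these probes, and each reported value came from a single probe. The authors' table held the same pair of arrays. With normexp background correction the difference was 1.85 for Serpinb9c, 3.30 for Serpinb9e and 3.46 for Serpinb9f, the bound of Serpinb9g was 2.87 and Serpinb6b fell short of 2-fold at 0.91, so 3 rather than 4 of the 7 measured genes were past 2-fold towards array A. The uncalled difference of Serpinb9 was −0.16 there. Without a filter on dim probes, Serpinb9c gave 1.44 and Serpinb9e 3.28, because their other, dim probe entered the mean. Scaling to the median added 0.29 to every difference and put the median of all measured genes at 0.27. It changed the number of genes past 2-fold from 570 (array A) and 1082 (array B) to 1313 and 587. Normexp left 707 on array B, a looser filter gave 949 and 1902 of 18568 genes, no filter 1491 and 2777 of 31709, and a 3-fold threshold 156 and 333.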
